A study of Mus musculus with 20 samples.

Results

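The cytosolic ribosome is built from ribosomal RNA and a fixed set of proteins, each encoded in the mouse by its own gene. The genes described here are the 77 of 49568 gene symbols in the deposited count tables that name such a protein: every Rpl or Rps symbol with a number and at most a closing a or x, plus Rplp0, Rplp1, Rplp2, Rpsa and Rps3a1. Of them, 31 encode proteins of the small subunit, which reads the mRNA, and 46 encode proteins of the large subunit, which joins amino acids. They were chosen by symbol and not by their values. In GENCODE M21 (GRCm38) they lie on 19 chromosomes, 14 of them on chromosome 7 and 4 on the X chromosome.

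Ribosomal protein genes are transcribed at high and closely matched rates, since the proteins are used in equal numbers. Their mRNAs begin with a run of pyrimidines through which mTOR signalling sets how well they are translated, so an mRNA level is not a rate of protein synthesis. Blood stem cells translate slowly compared with their progeny, and loss of a copy of several of these genes in humans causes Diamond-Blackfan anaemia, a failure of red cell production. None of this background is a result of the present data.

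Poly(A) RNA was sequenced from 4 groups of untreated mice aged 8 to 12 weeks, all of the strain C57BL/6: multipotent progenitors (MPP) of Ahr-KO and of WT mice, and long-term haematopoietic stem cells (LT-HSC) of Ahr-KO and of WT mice. LT-HSC are the self-renewing cells at the origin of all blood lineages, and MPP are their progeny. Ahr encodes the aryl hydrocarbon receptor, a ligand-activated transcription factor, and the series asks which of its targets act on stem cell function and proliferation. Each group holds 5 libraries of cells sorted from bone marrow. The sources used here name neither the knockout allele nor the markers of the sort. The protocol for the libraries refers to dendritic cells with 3 samples a group, unlike the cells and groups analysed. No batch or date is given, so a batch and a group cannot be told apart. Nothing says that the libraries of a group came from separate animals, so the p-values measure the spread between these libraries, which may be technical. Library totals ranged from 13712668 to 21622653 counts, and the 77 genes together took 1.89% to 3.46% of them. The lowest count of any of the 77 genes in any library was 135, for Rpl13a, whose counting error is a CV of 5.85% to 7.05% by group. In Ahr-KO LT-HSC that is as large as its whole spread between libraries (CV 6.55%), so depth limits this gene.

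The targeted gene did not check the labels. Ahr had 16.8, 9.68, 14.4, 19.1 and 19.2 CPM (counts scaled to the TMM-adjusted library size) in the Ahr-KO MPP libraries, against 5.82, 14.3, 12.4, 10.1 and 6.46 CPM in WT MPP. It had 29.5, 21.8, 23.2, 18.5 and 24.4 CPM in Ahr-KO LT-HSC, against 22.8, 28.5, 20.6, 24.2 and 36.8 CPM in WT LT-HSC. The transcript was thus present in every library labelled as a knockout, and the groups overlapped in both populations. The log2 fold change, Ahr-KO against WT, was 0.69 ± 0.27 (SE, edgeR quasi-likelihood test, Benjamini-Hochberg adjusted p = 0.663) in MPP and -0.15 ± 0.18 (adjusted p = 0.861) in LT-HSC. These counts therefore do not check the genotype, and directions below are those between libraries as labelled. The population labels did go with their markers: all 10 listed LT-HSC marker genes were called lower in MPP than in LT-HSC in both genotypes, and of 10 MPP marker genes 8 were called higher in Ahr-KO and 9 in WT.

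The promoters of 6 genes are shown because the results below turn on them: Rps26 and Rps13 had the smallest p-values between Ahr-KO and WT LT-HSC, Rpl13a, Rpsa and Rpl10 were called higher in MPP than in LT-HSC in 1 genotype each, and Rpl13 took a smaller share of the ribosomal protein counts in MPP. Each run covers the 100 bases before and the 20 bases from the annotated start, 5′ to 3′ on the gene's strand, from RefSeq (GRCm38.p6). Capitals mark the letters CTTTC or GAAAG, a piece of the pyrimidine-rich start on the gene's strand or its reverse complement, and CGGAAG, a core read by ETS-type factors such as GABP. The windows of Rps13 and Rpl10 hold none of these letters.
Rps26, chr10:128626487-128626606, minus strand: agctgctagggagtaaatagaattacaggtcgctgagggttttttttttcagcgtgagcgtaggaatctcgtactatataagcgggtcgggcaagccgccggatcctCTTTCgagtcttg
Rps13, chr7:116334171-116334290, minus strand: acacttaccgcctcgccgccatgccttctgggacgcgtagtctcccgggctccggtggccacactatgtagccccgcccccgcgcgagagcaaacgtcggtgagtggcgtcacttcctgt
Rpl10, chrX:74270716-74270835, plus strand: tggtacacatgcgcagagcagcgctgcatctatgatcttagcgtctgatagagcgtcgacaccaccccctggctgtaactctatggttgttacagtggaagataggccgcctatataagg
Rpl13a, chr7:45128726-45128845, minus strand: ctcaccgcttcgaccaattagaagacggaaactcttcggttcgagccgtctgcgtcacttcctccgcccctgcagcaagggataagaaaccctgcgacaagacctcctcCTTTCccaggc
Rpsa, chr9:120127666-120127785, plus strand: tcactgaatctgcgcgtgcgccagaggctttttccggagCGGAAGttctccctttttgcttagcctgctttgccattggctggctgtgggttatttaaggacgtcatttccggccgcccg
Rpl13, chr8:123102250-123102369, plus strand: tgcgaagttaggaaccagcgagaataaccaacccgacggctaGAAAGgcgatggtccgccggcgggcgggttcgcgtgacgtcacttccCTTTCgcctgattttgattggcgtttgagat

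Of the 77 genes, 57 had a promoter in the RefSeq table, and the other 20 were not analysed for motifs. In the window shown, CGGAAG or its reverse complement CTTCCG was found in 43.9% of the 57, against 11.7% of 27025 genes with a promoter. Within 10 bases before to 20 after the start, CTTTC on the gene's strand was found in 24.6% of the 57, against 4.43% of all. TATAAA or TTTATA in the longer window was found in 3.51%, against 7.17% of all. None of the 3 motifs or their reverse complements contains another, and a match is a description of the letters, not of a bound site.

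In GENCODE M21 (GRCm38) the gene bodies lie at 128624534 to 128626747 on chromosome 10 for Rps26, 45125558 to 45128761 on chromosome 7 for Rpl13a, 120127689 to 120132369 on chromosome 9 for Rpsa and 123102350 to 123105244 on chromosome 8 for Rpl13. All are protein-coding genes, and the counts cover their exons. The promoter window shown for Rps26 lies wholly within its gene body, so RefSeq and GENCODE place its start differently.

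Levels of the 77 genes differed widely. Per kilobase of transcript, WT LT-HSC had a median of 364 CPM per kb over the genes. Rpl13, a large subunit protein, was highest, at 1676 ± 80.7 CPM per kb in WT LT-HSC (SD, n = 5). It was followed by Rpl32 at 1112, the kinase target Rps6 at 988, Rps19 at 941 and Rps18 at 895 CPM per kb. At the low end stood Rpl28 at 129, Rps20 at 62.8, Rpl24 at 29.5, Rps15a at 27.6 and Rpl13a at 9.37 ± 2.27 CPM per kb in WT LT-HSC. Part of this order comes from the gene models: Rps20 and Rps15a have assigned transcripts of 3706 and 5130 bases, which lowers a level per kb. Rpl13a shares 35.4% of its exonic bases with other annotated genes on its strand, Rpl24 shares 47.0%, and 37 of the 77 genes share some. How the counting treated such reads, and reads that fit more than 1 place, is not stated in the labels. Pseudogenes add to this, since 55 of the 77 genes have processed copies named after them. For 8 genes, among them Rpl35a, Rpl23a, Rpl10 and Rps13, these copies hold more counts than the gene itself. The share of pseudogenes in the counts of genes plus copies was 22.4% to 24.7% in every library, so it hardly differed between groups.

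The summed level of the 77 genes varied more in MPP than in LT-HSC. It was 33894, 33358, 31880, 29165 and 24355 CPM in Ahr-KO MPP, against 20090, 24739, 28801, 27834 and 33514 CPM in WT MPP. In LT-HSC it was 29640, 29323, 29683, 30222 and 27269 CPM in Ahr-KO, against 23773, 27184, 24392, 27093 and 26114 CPM in WT. The MPP groups overlapped widely, while the lowest Ahr-KO LT-HSC library lay just above the highest WT LT-HSC library. Means were 30530 ± 3909 CPM in Ahr-KO MPP against 26995 ± 4981 in WT MPP, and 29228 ± 1142 in Ahr-KO LT-HSC against 25711 ± 1560 in WT LT-HSC (SD, n = 5 each). The coefficient of variation of the sum was 12.8% and 18.4% in Ahr-KO and WT MPP, against 3.91% and 6.07% in Ahr-KO and WT LT-HSC. These are bulk samples, in which fewer cells of a type and less RNA per cell cannot be told apart.

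**Figure D1:**
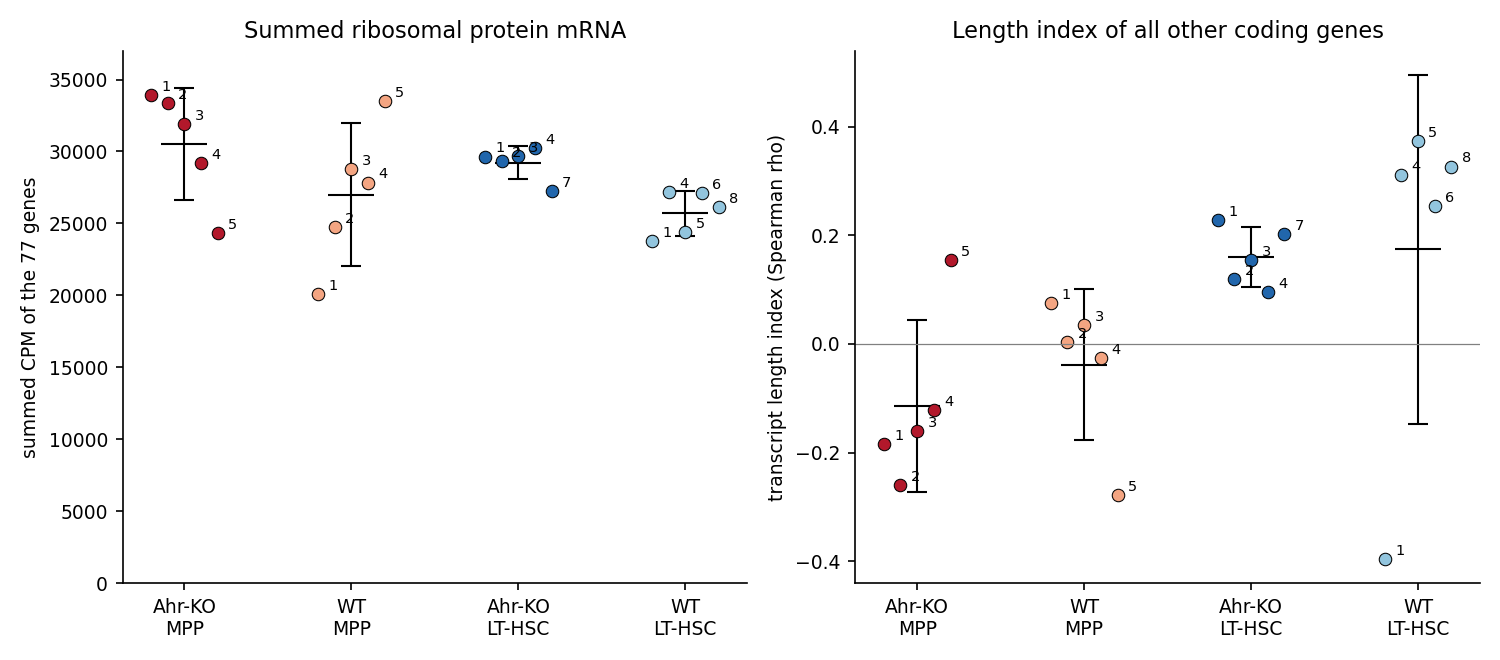
Left, the summed CPM of the 77 ribosomal protein genes in each library. Right, the transcript length index of each library, the Spearman correlation across 12813 other coding genes between transcript length and the log2 ratio of the library to the mean of all libraries. Points are libraries with their numbers, and bars are the mean and SD of 5 libraries. The sums of WT MPP 1 and Ahr-KO MPP 5 lie lowest in MPP, and the index of WT LT-HSC 1 lies far below its group.

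Library bias was checked because the 77 transcripts are short, with a median of 774 bases against 2825 for 12251 other coding genes. A positive length index means that long transcripts read high in a library. The index was -0.18, -0.26, -0.16, -0.12 and 0.15 in Ahr-KO MPP, against 0.07, 0.00, 0.04, -0.03 and -0.28 in WT MPP. It was 0.23, 0.12, 0.15, 0.10 and 0.20 in Ahr-KO LT-HSC, against -0.40, 0.31, 0.37, 0.25 and 0.33 in WT LT-HSC. In MPP the sum moved with the index at the ends: Ahr-KO MPP 5 had the highest index and a low sum, and WT MPP 5 had the lowest index of its group and the highest sum. In LT-HSC it did not, since WT LT-HSC 1 had by far the lowest index and also the lowest sum of the LT-HSC libraries.

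Within the family, the ratios went with transcript length in the same MPP libraries. WT MPP 1 stood below the other WT MPP libraries by a median log2 ratio of -0.96 over the 24 genes with transcripts under 600 bases. The ratio was -0.59 for the 34 genes of 600 to 1000 bases and -0.44 for the 19 longer ones. Ahr-KO MPP 5 showed a milder gradient of -0.52, -0.40 and -0.36, and WT MPP 5 the opposite one of 0.48, 0.42 and 0.36. In WT LT-HSC 1 the 3 medians were closer together, at -0.26, -0.21 and -0.20, while single genes ran from -0.86 to 0.62. Single genes also ran widely in WT MPP 1, from -1.88 to 0.29. The short Rps21, a small subunit protein, had 19.0, 52.8, 70.9, 66.6 and 89.2 CPM in WT MPP, the widest relative spread of the 77 genes there. The long Rpl4, a large subunit protein at the exit tunnel, had 1037, 1079, 1132, 1023 and 1200 CPM in the same libraries, the narrowest. Rps21 also had the widest spread in Ahr-KO MPP (CV 31.9%) and in Ahr-KO LT-HSC (CV 14.4%). The part of length in these spreads was not tested.

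**Figure D2:**
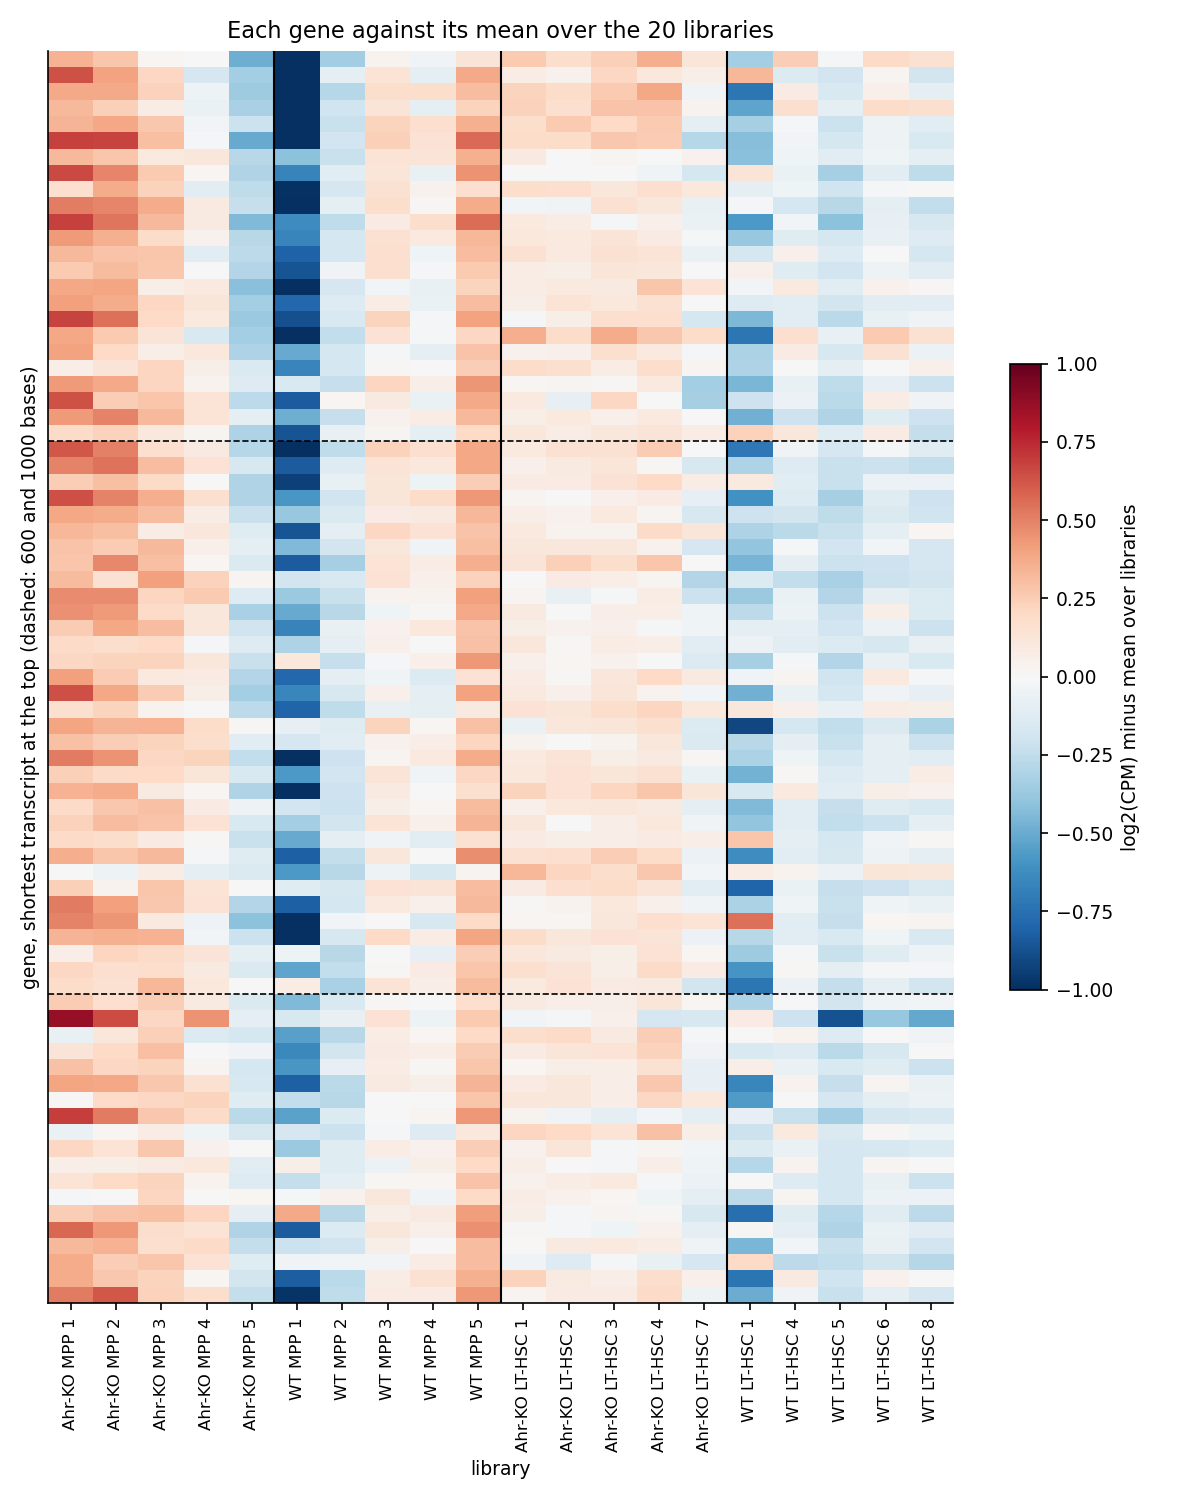
Heat map of log2 CPM of each of the 77 genes (rows, shortest transcript at the top) minus its mean over the 20 libraries (columns, by group), with colours ending at -1 and 1. Dashed lines stand at 600 and 1000 bases. WT MPP 1 is low in most short genes, Ahr-KO LT-HSC is even, and WT LT-HSC 1 mixes high and low genes.

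The comparison of Ahr-KO with WT LT-HSC asked whether loss of the receptor goes with a change of ribosomal protein mRNA in stem cells. All 77 genes had higher values in Ahr-KO LT-HSC, by a median log2 fold change of 0.22 (range 0.04 to 0.41), which is 1.17-fold. No gene of the family passed the test: edgeR called 0 of 77 at an adjusted p under 0.05, and 0.00622% of all 16065 genes tested. The median over all tested genes was 0.00, and 50.1% of them were positive. At an unadjusted p under 0.05 stood 53 of the 77, all higher, against 4.83% of all genes. In 22 of the 77 every Ahr-KO library lay above every WT library, against 1.97% of all genes. The 77 genes were read from the same libraries, so these counts are not 77 separate observations. A gene that did not pass may still differ. In simulated counts this test called 0% of genes drawn from all those tested and changed by 0.3.

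Rps26, a small subunit protein at the mRNA exit whose gene is mutated in Diamond-Blackfan anaemia, had the highest fold change and the smallest p. It had 187, 201, 193, 206 and 170 CPM in Ahr-KO LT-HSC, against 124, 159, 147, 147 and 151 CPM in WT LT-HSC. The lowest Ahr-KO library exceeded the highest WT one, so the groups did not overlap. Its log2 fold change of 0.41 ± 0.09 (SE) did not pass after adjustment (edgeR, adjusted p = 0.309). Rps13, another small subunit protein, had 217, 223, 215, 223 and 209 CPM in Ahr-KO, against 149, 181, 169, 191 and 180 CPM in WT, again without overlap (0.34 ± 0.08, edgeR adjusted p = 0.409). Rpl26, a large subunit protein known in human cells to bind the p53 mRNA as well, had 280, 296, 290, 298 and 270 CPM in Ahr-KO, against 246, 250, 237, 250 and 248 CPM in WT, with no overlap (0.24 ± 0.06, edgeR adjusted p = 0.421). Rpl28 had 0.27 ± 0.08 (edgeR, adjusted p = 0.460). Rpl10 had the second highest fold change, at 0.40 ± 0.14, and the lowest were those of Rpl35 at 0.04 ± 0.12 and Rpl5 at 0.09 ± 0.09.

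Medians of the functional classes lay close together in Ahr-KO LT-HSC. The median log2 fold change was 0.25 over the 31 small subunit genes and 0.21 over the 46 large subunit genes. It was 0.20 for the stalk genes Rplp0, Rplp1 and Rplp2, whose products recruit translation factors, and 0.20 for 6 genes at the peptide exit tunnel. It was 0.22 for the 17 Diamond-Blackfan anaemia genes and 0.30 for the 4 genes on the X chromosome. Rps19, the gene most often mutated in that anaemia, had 0.14 ± 0.07 (SE, edgeR adjusted p = 0.585). Rps14, lost in the human 5q- syndrome, had 0.10 ± 0.09 (edgeR adjusted p = 0.779). Rpl5 and Rpl11, which with their ribosomal RNA can bind MDM2 and so raise p53, had 0.09 ± 0.09 and 0.22 ± 0.11 (edgeR adjusted p = 0.838 and 0.576). The groups overlapped for these 4 genes. Rps19 had 779, 747, 800, 850 and 789 CPM in Ahr-KO LT-HSC, against 722, 754, 644, 789 and 733 CPM in WT LT-HSC. Rpl5 had 470, 441, 479, 458 and 429 CPM in Ahr-KO, against 554, 402, 406, 425 and 395 CPM in WT. Here WT LT-HSC 1 alone lay above all Ahr-KO libraries, and the other 4 WT libraries lay below them. Rpl11 had 266, 274, 270, 275 and 236 CPM in Ahr-KO, against 179, 250, 227, 233 and 261 CPM in WT, with Ahr-KO LT-HSC 7 within the WT range. The remaining genes followed for their known roles also did not pass: Rpl22, which acts in lymphocyte development, at 0.19 ± 0.09, Rpl38, tied to the translation of Hox mRNAs, at 0.14 ± 0.10, Rps6, the S6 kinase substrate, at 0.09 ± 0.08, Rplp0 at 0.17 ± 0.06 and Rpsa at 0.30 ± 0.12.

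**Figure D3:**
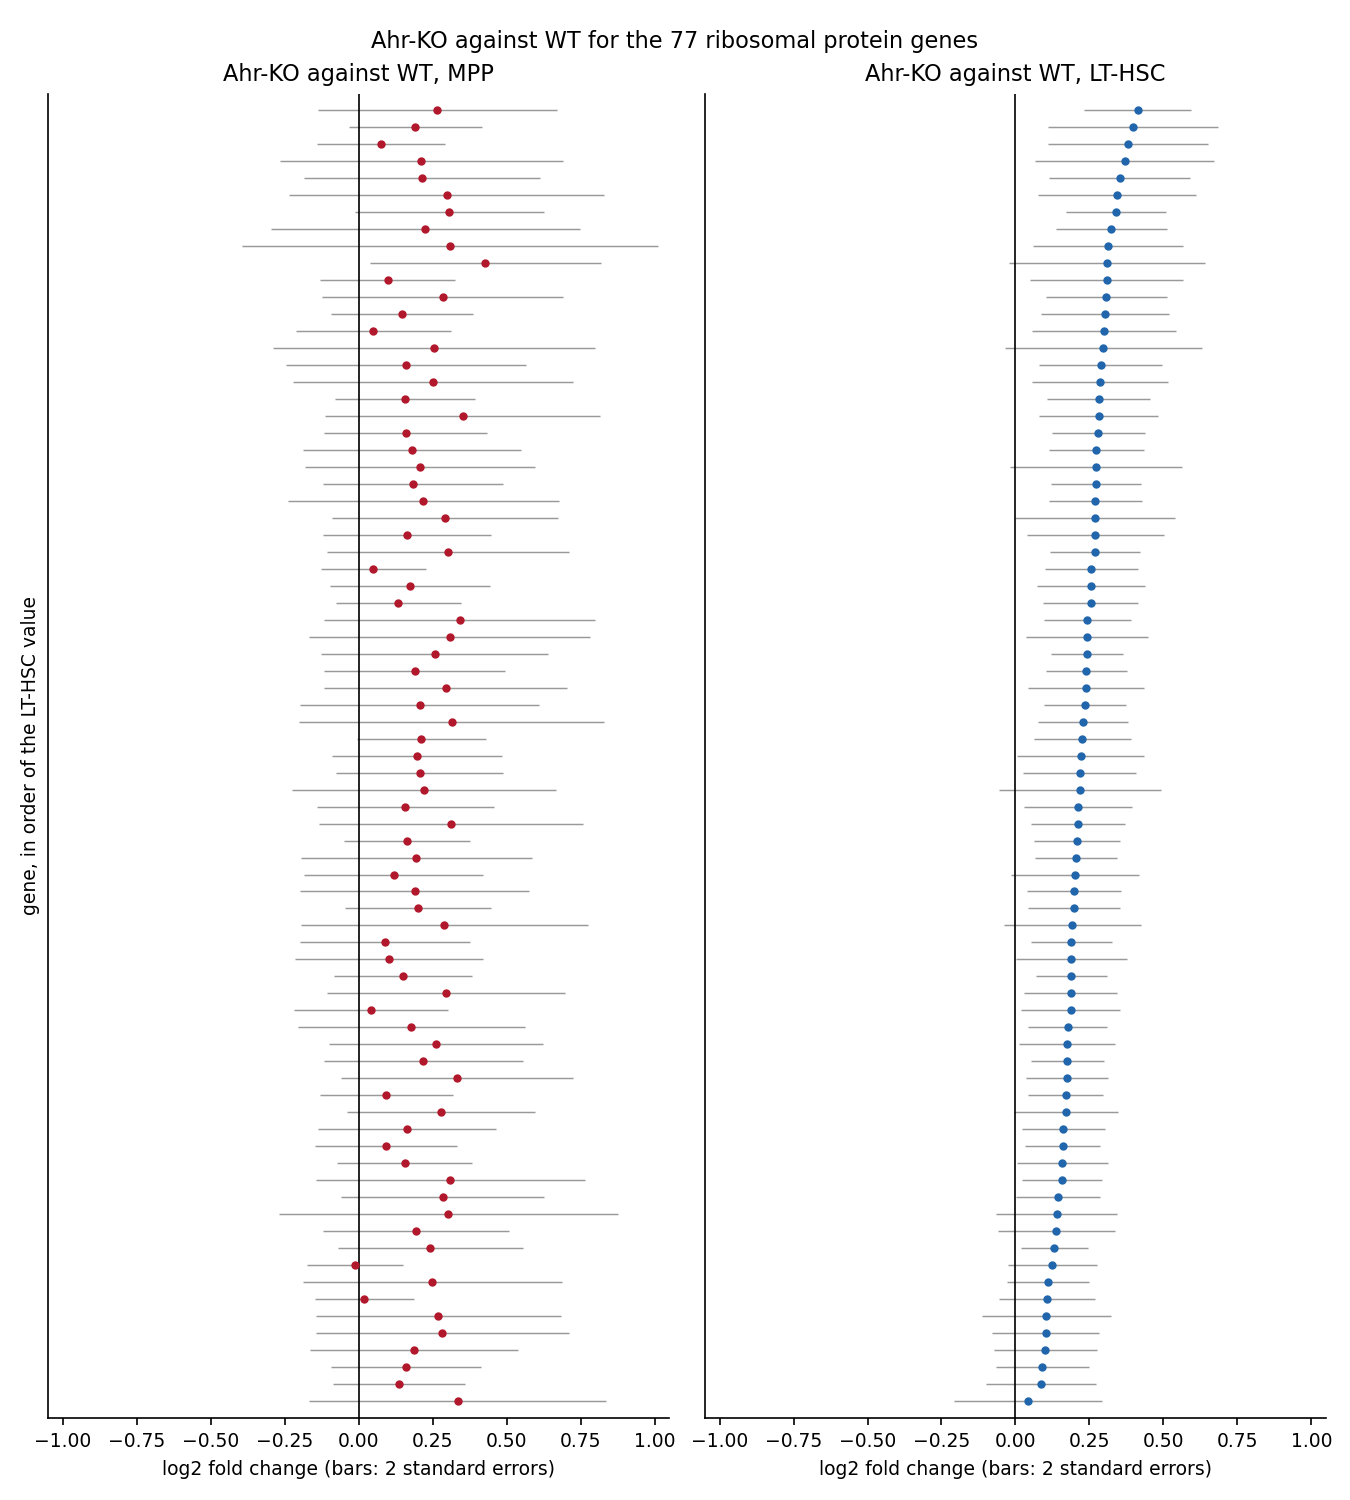
Log2 fold change of each of the 77 genes, Ahr-KO against WT, in MPP (left) and LT-HSC (right), with bars of 2 standard errors. Genes are in the order of their LT-HSC value. Medians are 0.21 and 0.22, and no gene passes the test in either population, with wider bars in MPP.

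These calls turned on the library WT LT-HSC 1, and on how the spread was modelled. That library correlated with the others of its group at 0.909 to 0.918, where the other 36 pairs within groups had 0.940 to 0.980. Without it edgeR called 5 of the 77 genes higher, against 1.24% of all genes, among them Rps26 (0.35, adjusted p = 0.0236), Rps13 (0.28, adjusted p = 0.0320), Rpl26 (0.23, adjusted p = 0.0392) and Rpl7 (0.21, adjusted p = 0.0469), with a median of 0.18 over the 77. With all 10 libraries, DESeq2 called 7 of the 77 (0.915% of all genes) and limma voom with quality weights called 19 (1.64%). With the length index as a covariate edgeR called 43 of the 77 (8.5% of all genes, median 0.23), and with length and GC indexes 17 (3.14%, median 0.18). With offsets for each library's own trend on length and GC it called 0, and the median was 0.13 with 71 of the 77 positive. Of other coding genes with transcripts under 1000 bases, 50.1% were positive in Ahr-KO LT-HSC with all libraries, with a median of 0.00. Without WT LT-HSC 1, an alternative chosen after seeing the data, 75.9% of them were positive with a median of 0.15, near the 0.18 of the family, against 31.4% and -0.10 for transcripts of 4000 bases or more. The other 4 WT LT-HSC libraries all had a higher length index (0.25 to 0.37) than every Ahr-KO LT-HSC library (0.10 to 0.23). Length thus moved with the family's shift once that library was left out, and its part in the shift was not tested further.

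Markers of other cells were uneven between these libraries. Neutrophil markers summed to 8.68 to 1527 CPM in Ahr-KO LT-HSC, against 7.29 to 95.1 CPM in WT LT-HSC, with 10 of 10 genes positive and the high values in Ahr-KO LT-HSC 2 and 3. Stromal and endothelial markers summed to 99.6 to 4365 CPM against 78.1 to 144, monocyte markers to 438 to 2553 against 494 to 704, and erythroid markers to 127 to 2800 against 411 to 1781. Among Ahr-KO LT-HSC, libraries 2 and 3 had MPP marker sums of 2376 and 2217 CPM and the other 3 had 545 to 960 CPM, against 691 to 1449 CPM in WT LT-HSC. LT-HSC marker sums were lower in libraries 2 and 3 (1374 and 1459 CPM) than in the other 3 (1632 to 1749 CPM). In WT LT-HSC this sum was lowest in WT LT-HSC 1, at 1119 CPM, below every Ahr-KO LT-HSC library, and the other WT libraries had 1591 to 1720 CPM. B cell markers summed to 44.2 to 82.8 CPM against 42.1 to 76.1, and T and NK cell markers to 61.3 to 126 against 59.0 to 128. Cd79a, which defines B cells, was at 0.137 to 9.44 CPM in Ahr-KO LT-HSC and 0.0489 to 0.948 CPM in WT LT-HSC, and Cd3e, which defines T cells, at 0.0594 to 2.54 and 0 to 3.46 CPM. Without Ahr-KO LT-HSC 2 and 3 the median over the 77 genes was 0.21, close to 0.22 with them, and 0 were called. The sum of Ahr-KO LT-HSC 2 and 3, at 29323 and 29683 CPM, lay among the other Ahr-KO libraries.

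In MPP the direction was the same and the spread larger. Of the 77 genes, 76 had higher values in Ahr-KO than in WT MPP, with a median log2 fold change of 0.21 (range -0.01 to 0.43), against 50.9% positive among all genes. None of the 77 passed the test, with 0.0311% of all 16077 genes called by edgeR. At an unadjusted p under 0.05 stood only Rpl13a, against 3.13% of all genes for the higher direction. In 0 of the 77 genes did every Ahr-KO library lie above every WT library, against 0.585% of all genes. Short genes outside the family moved the same way here: 72.6% of coding genes with transcripts under 1000 bases were positive, and their median was 0.11. That share was 56.4%, 45.2% and 39.6% in the 3 longer classes, so length went with the comparison in MPP, and its part in the family's shift was not tested further than by the covariates.

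Rpl13a, a large subunit protein known in human cells to leave the ribosome and silence inflammatory mRNAs, had the highest value in MPP. It had 22.8, 19.6, 14.4, 17.0 and 11.7 CPM in Ahr-KO MPP, against 11.2, 11.9, 13.8, 12.03 and 15.0 CPM in WT MPP. The groups overlapped, since Ahr-KO MPP 3 and 5 lay within the WT range (0.43 ± 0.20, SE, edgeR adjusted p = 0.747). The next smallest p-values belonged to Rpl29, Rps13, Rpl10a and Rpl10, with 0.21 ± 0.11, 0.31 ± 0.16, 0.28 ± 0.16 and 0.19 ± 0.11 (edgeR, adjusted p of 0.769 to 0.795). Rps26 had 206, 237, 209, 173 and 154 CPM in Ahr-KO MPP, against 95.7, 135, 187, 180 and 219 CPM in WT MPP, overlapping widely (0.27 ± 0.20, edgeR adjusted p = 0.849). Rps15a had 0.35 ± 0.23 and Rps19 0.28 ± 0.17. At the other end Rpl4 had -0.01 ± 0.08 and Rpl3, which lines the peptidyl transferase centre, 0.02 ± 0.08. The other followed genes lay between 0.05 for Rpsa and 0.30 for Rpl38.

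Markers of other cells overlapped between the MPP groups. Neutrophil markers summed to 154 to 823 CPM in Ahr-KO MPP, against 393 to 739 in WT MPP, erythroid markers to 168 to 587 against 345 to 799, and monocyte markers to 691 to 1245 against 669 to 1098. B cell markers summed to 94.9 to 185 CPM against 65.5 to 133, with 10 of 10 genes positive and none called. Their part in the result was not tested.

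The MPP median rested on few libraries. It was 0.10 without WT MPP 1 and 0.31 without WT MPP 5, and 0.17 without both WT MPP 1 and Ahr-KO MPP 5. With the length index as a covariate it was 0.09, with length and GC indexes 0.18, and with trend offsets 0.13.

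The Ahr-KO effect in MPP did not differ from that in LT-HSC by the test of that difference. In the fit of all 20 libraries 0 of the 77 genes were called, and 0% of all 17416 genes, while at an unadjusted p under 0.05 stood 0 of the 77 and 6.46% of all genes. The median difference of effects was -0.01, with 38 of the 77 positive against 51.9% of all genes. Without WT MPP 1 it was -0.13 with 8 positive, and without WT MPP 5 it was 0.08 with 58 positive. DESeq2 called 51 genes and limma voom 17, with 0 of the 77 among them. Rpl7a had -0.29 ± 0.17 (SE, edgeR adjusted p = 0.844) and Rpsa -0.23 ± 0.19 (edgeR adjusted p = 0.893), and the highest value was that of Rpl35 at 0.31 ± 0.30. An interval of 2 standard errors around each of these values includes 0.

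Few of the 77 genes were called between LT-HSC and MPP, although much of the transcriptome was. A gene that was not called may still differ by a small amount. In Ahr-KO mice 1 of the 77 was called higher in MPP than in LT-HSC and 0 lower, against 12.5% of all 17416 genes called higher and 10.7% called lower. In WT mice 2 were called higher and 0 lower, against 11.0% and 11.3% of all genes. The median log2 fold change over the 77 was 0.09 in Ahr-KO with 60 positive (51.1% of all genes), and 0.11 in WT with 59 positive (51.0% of all genes). The groups did not overlap for 0 of the 77 in Ahr-KO, against 10.9% of all genes higher and 10.5% lower, and for 1 of the 77 in WT, Rpl10, against 8.23% higher.

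In Ahr-KO mice the called gene was Rpl13a, with 22.8, 19.6, 14.4, 17.0 and 11.7 CPM in Ahr-KO MPP, against 12.2, 12.4, 12.9, 11.1 and 11.2 CPM in Ahr-KO LT-HSC. Only Ahr-KO MPP 5 lay within the LT-HSC range. Its log2 fold change was 0.52 ± 0.18 (SE, edgeR adjusted p = 0.0393), but the call was lost in 26 of 37 alternatives. Rpl5 at 0.28 ± 0.10 and Rpl29 at 0.25 ± 0.09 fell just short (edgeR, adjusted p = 0.0517 and 0.0572). Rpl21 had the lowest value, -0.23 ± 0.10 (edgeR, adjusted p = 0.0851).

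In WT mice the called genes were Rpsa, the laminin receptor precursor that is also a small subunit protein, and Rpl10, a large subunit protein added last as the subunit matures. Rpsa had 777, 491, 622, 636 and 795 CPM in WT MPP, against 353, 548, 489, 547 and 497 CPM in WT LT-HSC. WT MPP 2 lay within the LT-HSC range, WT MPP 5 and 1 were highest, and WT LT-HSC 1 was lowest. Its log2 fold change was 0.45 ± 0.13 (SE, edgeR adjusted p = 0.0178). Rpl10 had 383, 372, 471, 409 and 496 CPM in WT MPP, against 215, 358, 340, 365 and 324 CPM in WT LT-HSC, with WT LT-HSC 1 far lowest and no overlap (0.41 ± 0.13, edgeR adjusted p = 0.0275). In Ahr-KO mice the same genes had 0.21 ± 0.13 and 0.22 ± 0.13 (edgeR adjusted p = 0.268 and 0.240), and the difference between genotypes did not pass. Rpl7a at 0.34 ± 0.12 and Rpl29 at 0.25 fell short (edgeR, adjusted p = 0.0546 and 0.0615), and Rps27, a short small subunit gene, had the lowest value at -0.29 ± 0.21.

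These calls moved with the libraries and with the length correction. Without WT LT-HSC 1 the WT comparison called Rpl10, Rpl13a, Rpl29, Rpl5 and Rpsa higher, and the Ahr-KO comparison called Rpl13a, Rpl29 and Rpl5 higher. Without WT MPP 1 the WT comparison called Rpl10 and Rpl29 but not Rpsa. Without both WT MPP 1 and Ahr-KO MPP 5 it called 13 of the 77 in Ahr-KO (12 higher, 1 lower), with 24.0% of all genes, and 9 in WT, all higher, with 20.8%. With the length index as a covariate the median was 0.03 in both genotypes, with 46 of the 77 positive in Ahr-KO and 45 in WT, and with length and GC indexes it was 0.02 with 40 positive in Ahr-KO and 0.03 with 43 in WT. With offsets for length and GC trends the direction turned: the median was -0.16 in both genotypes, with 9 called lower in Ahr-KO (24.8% of all genes called) and 12 lower and 1 higher, Rpsa, in WT (24.7%). Outside the family 68.3% of coding genes under 1000 bases were positive in Ahr-KO, with a median of 0.19, against 35.8% and -0.16 for those of 4000 bases or more. The tilt was weaker in WT, at 57.0% and 0.07 against 41.2% and -0.09. The direction of the whole family between the populations thus turned with these offsets. The length index itself went with the population: it was 0.10 to 0.37 in LT-HSC, apart from -0.40 in WT LT-HSC 1, and -0.28 to 0.15 in MPP. A length trend and a difference between the populations therefore cannot be told apart here.

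**Figure D4:**
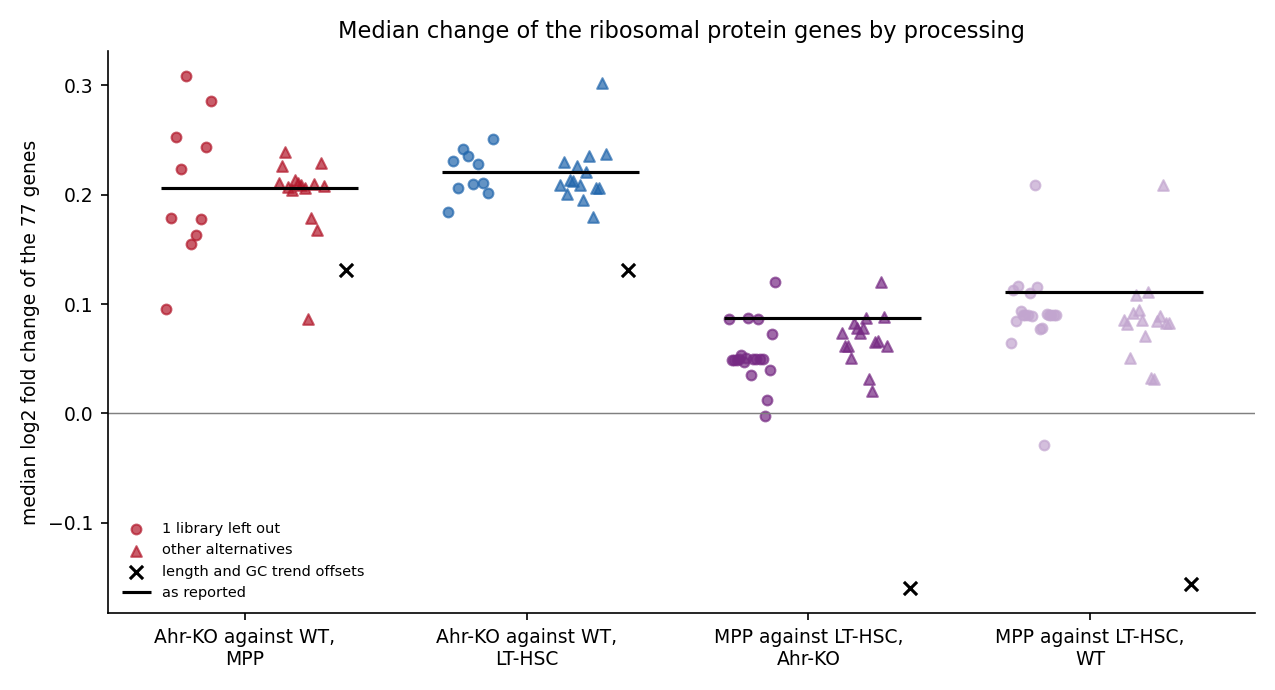
Median log2 fold change of the 77 genes in 4 comparisons, as reported (lines) and under each alternative: 1 library left out (circles), other settings (triangles) and offsets for length and GC trends (crosses). The Ahr-KO medians stay above 0 throughout, and the MPP against LT-HSC medians cross 0.

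Set against the family's own total, the mix of ribosomal protein mRNAs can be compared without the common shift. In this test the summed counts of the 77 genes took the place of the library size. Between Ahr-KO and WT 0 of the 77 were called in either population, against 0.056% of all genes in LT-HSC and 0.00622% in MPP. Rps26 in LT-HSC had 0.21 ± 0.08 (SE, edgeR adjusted p = 0.222). Between MPP and LT-HSC 1 of the 77 was called in Ahr-KO and 3 in WT, against 14.8% of all genes in each genotype.

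Rpl21, a large subunit protein, was called in both genotypes. Per 1000 counts of the family it had 9.82, 9.63, 11.0, 10.6 and 12.3 in Ahr-KO MPP, against 14.1, 13.1, 12.7, 13.2 and 11.9 in Ahr-KO LT-HSC. It had 11.1, 11.1, 11.1, 10.7 and 10.1 in WT MPP, against 14.7, 12.5, 13.1, 13.4 and 13.7 in WT LT-HSC. Its share was thus lower in every WT MPP library than in any WT LT-HSC library, while Ahr-KO MPP 5 and Ahr-KO LT-HSC 7 overlapped. The relative log2 fold change was -0.29 ± 0.10 in Ahr-KO and -0.32 ± 0.10 in WT (SE, edgeR adjusted p = 0.0483 and 0.0269). The call was kept in 5 of 21 alternatives in Ahr-KO and in 17 of 21 in WT.

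Rpl13, the most abundant gene per length, had 41.8, 44.4, 40.7, 43.6 and 43.4 per 1000 family counts in Ahr-KO MPP, against 47.2, 47.1, 48.2, 48.6 and 50.1 in Ahr-KO LT-HSC. It had 36.2, 42.9, 41.8, 42.7 and 40.3 in WT MPP, against 57.6, 48.3, 49.2, 49.1 and 50.6 in WT LT-HSC. All MPP libraries lay below all LT-HSC libraries in both genotypes. The difference passed in WT at -0.32 ± 0.09 and not in Ahr-KO at -0.17 ± 0.09 (SE, edgeR adjusted p = 0.0178 and 0.222), and the difference between the genotypes did not pass in the fit of all 20 libraries (0.15 ± 0.13, edgeR adjusted p = 0.9999). Rpl10 was called higher in WT MPP at 0.37 ± 0.12 (edgeR adjusted p = 0.0378), with 19.1, 15.1, 16.4, 14.7 and 14.8 per 1000 in WT MPP, against 9.03, 13.2, 13.9, 13.5 and 12.4 in WT LT-HSC. Rpsa fell short at 0.43 ± 0.15 (edgeR adjusted p = 0.0565), with 38.7 per 1000 in WT MPP 1 against 19.9 to 23.7 in the other WT MPP libraries.

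With the geometric mean of the 77 in place of their sum, Rpl13 in WT was still called (edgeR adjusted p = 0.0317), while Rpl21 (0.0860 in Ahr-KO and 0.0668 in WT) and Rpl10 (0.0745) were not. Without WT LT-HSC 1 all 3 were still called in WT, Rpl13 at -0.27 (edgeR adjusted p = 0.0199), Rpl21 at -0.29 (0.0320) and Rpl10 at 0.27 (0.0491), and Rpl21 in Ahr-KO at an adjusted p of 0.0225. The balance of the subunits hardly moved: small subunit genes took 40.9% to 43.0% of the family's counts in Ahr-KO MPP and 40.8% to 42.7% in WT MPP, against 41.4% to 41.7% in Ahr-KO LT-HSC and 40.3% to 41.6% in WT LT-HSC.

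**Figure D5:**
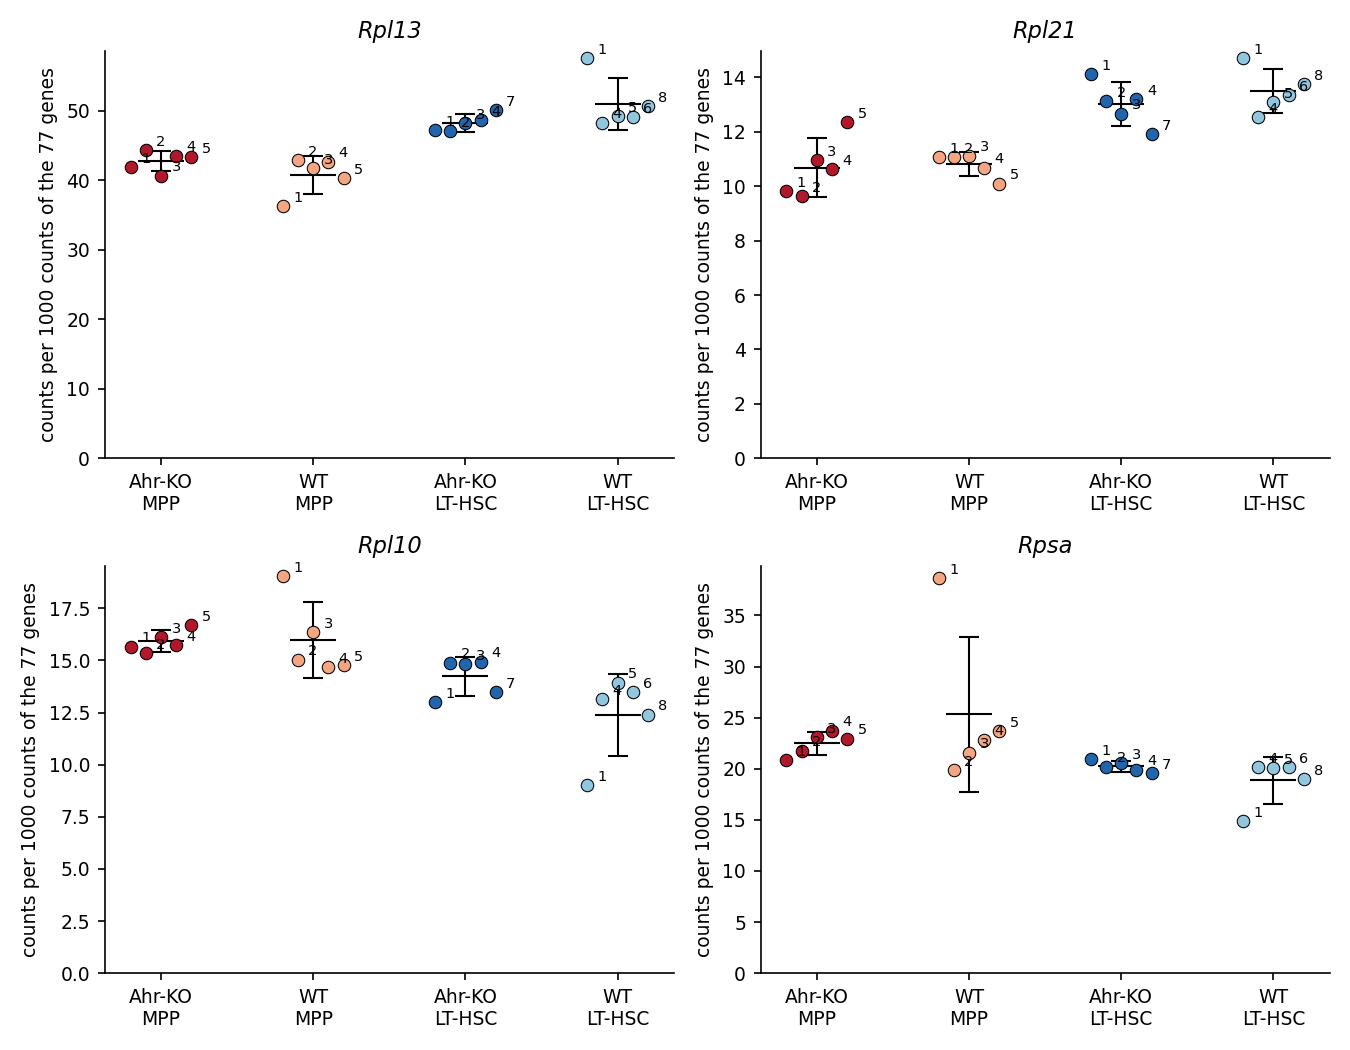
Counts of 4 genes per 1000 counts of the 77 genes in each library, with the mean and SD of 5 libraries. Rpl13 and Rpl21 take smaller shares in MPP than in LT-HSC, while Rpl10 and Rpsa in WT rest partly on MPP 1 and LT-HSC 1.

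Other genes of translation were followed by lists chosen with earlier results of these data known. Between Ahr-KO and WT, edgeR called 0 genes in each list in either population. In LT-HSC Fau and Rack1, genes of ribosomal proteins that the symbol rule leaves out, had 0.21 ± 0.09 and 0.13 ± 0.08 (SE, edgeR adjusted p = 0.550 and 0.702), and all 6 tested paralogs were positive with a median of 0.21. Of 30 translation factors 26 were positive with a median of 0.11, led by the elongation factor Eef1g at 0.31 ± 0.08 (SE, edgeR adjusted p = 0.409). Ribosome biogenesis genes, which process and assemble the particle, were positive in 20 of 32 with a median of 0.04. In MPP Fau had 0.25 ± 0.18 and Rack1 0.06 ± 0.11, and the medians were 0.28 for the paralogs, 0.01 for translation factors and 0.07 for biogenesis genes.

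Between MPP and LT-HSC these lists held some called genes. Of all genes 12.5% were called higher and 10.7% lower in Ahr-KO, and 11.0% and 11.3% in WT. Among translation factors and biogenesis genes the shares called higher lay near those of all genes, and few or none were called lower. The lists were not tested as sets. Rack1, a scaffold on the small subunit, rose in MPP by 0.33 ± 0.10 in Ahr-KO and 0.38 ± 0.10 in WT (SE, edgeR adjusted p = 0.0166 and 0.00711). Eif4a1, the helicase that unwinds mRNA leaders, rose by 0.60 ± 0.08 and 0.56 ± 0.08 (edgeR, adjusted p = 1.14e-05 and 2.54e-05). Of the 30 translation factors 3 rose and 1 fell in Ahr-KO, and 3 rose in WT. Of the 32 biogenesis genes 5 rose in each genotype and none fell, among them the nucleolar GTPase Gnl3 at 0.68 ± 0.10 in Ahr-KO and 0.45 ± 0.10 in WT (edgeR, adjusted p = 4.21e-05 and 0.00214) and the box C/D protein Nop56 at 0.76 ± 0.11 and 0.43 ± 0.11 (edgeR, adjusted p = 3.85e-05 and 0.00635). Taf1d, a factor of RNA polymerase I, rose by 1.76 ± 0.20 and 0.96 ± 0.19 (edgeR, adjusted p = 2.96e-06 and 0.00120). No test of the difference between genotypes passed for these genes.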

How the data were processed

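The authors deposited whole-number counts for 49568 gene symbols in 2 tables, 1 for each population, which were joined. Tools listed without settings in the submitters' processing notes are STAR 2.5.2b, Trimmomatic 0.36, DESeq2 1.12.4 and Subread 1.5.0p3 (featureCounts), on GRCm38.p5, and per the labels the authors purified mRNA with oligo-dT beads and built libraries with the TruSeq RNA kit V2. Date-like symbols (26, at most 0.156% of counts) were kept. Gene models came from GENCODE M21, in which 47181 symbols matched once. Transcript length is that of the shortest best-supported principal transcript.

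Tests used edgeR 4.0.16 in R 4.3.3 across all genes (filterByExpr, TMM, robust quasi-likelihood F test, two-sided, Benjamini-Hochberg, called at an adjusted p under 0.05). All 77 genes passed the filter. Ahr-KO was compared with WT in the 10 libraries of a population, and the other comparisons used 1 fit of 20 libraries. Standard errors were derived from each log2 fold change and its F statistic. Alternatives were other scalings and filters, DESeq2 1.42.0, limma 3.58.1 voom, a fold of 1.2, length and GC indexes or trend offsets, libraries left out, the replicate block, and, added after seeing the data, pseudogene counts, length classes and lists without WT LT-HSC 1, and the block for the difference of effects. The code was tested on simulated counts, with genes drawn from all those tested and not from the 77. Of 100 genes changed by 0.3 on the log2 scale, up or down, 0% were called in either Ahr-KO comparison. In the fit of 20 libraries 1% were called, for MPP against LT-HSC in Ahr-KO. Of genes changed by 1, the shares called were 48.5% in LT-HSC, 49.5% in MPP and 45.4% in that fit.

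The 77 genes and all lists were chosen with earlier results of these data known. Named genes are Ahr, Rps19, Rpl5, Rpl11, Rps14, Rpl22, Rpl38, Rps6, Rplp0 and Rpsa, and in each comparison the 5 smallest p-values and the 2 highest and lowest fold changes, the 5 highest and lowest levels per length, and up to 3 called genes of each list, or that with the smallest p. Rps21, genes named for a shared base or pseudogene, and those called only under an alternative were named after their values were seen. Some genes that the rule names are not reported here.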

Additional observations from a re-analysis of the deposited data

Results flagged for a closer look

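In each group of 5 libraries the highest and lowest library was set against the gap to the others (Dixon's rule) for 32 measures, and chance flags about 1 in 20 groups. Of the 128 groups tested, 12 were flagged. The transcript length index was -0.396 in WT LT-HSC 1, where the others of the group had 0.25 to 0.37, and -0.278 in WT MPP 5, where the others had -0.03 to 0.07. WT LT-HSC 1 also stood apart in 5 genes, low in Rpl10 (215 CPM), Rpl22 (82.1 CPM) and Rpl7a (109 CPM), and high in Rpl35 (321 CPM) and Rpl5 (554 CPM).

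Ahr-KO LT-HSC 7 was low in Rpl11 (236 CPM) and Rpl29 (152 CPM), and its share of pseudogene counts was highest, at 24.7% against 22.7% to 23.1%. Ahr-KO MPP 3 was high in Rpl4 (1217 CPM), and Ahr-KO MPP 5 was low in Rpsa (559 CPM). Rpl35 shares 66.2% of its exonic bases with genes on the opposite strand, and the labels do not state whether the counting used strand. The causes were not tested.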

How the results depend on the processing

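The main limits are the wide spread in MPP, the length bias of single libraries and the library WT LT-HSC 1, and depth limits Rpl13a. Leaving out 1 library at a time gave 0 to 5 called genes in LT-HSC and 0 in MPP for Ahr-KO against WT, 0 to 5 in Ahr-KO and 1 to 5 in WT for MPP against LT-HSC, and 0 for the difference of effects. The medians ranged from 0.18 to 0.25, 0.10 to 0.31, -0.00 to 0.12, -0.03 to 0.21 and -0.13 to 0.08 in that order. Relative to the family's sum the counts ranged from 0 to 4 in Ahr-KO and 1 to 6 in WT for MPP against LT-HSC. In that test 14.8% of all genes were called in each genotype with all libraries. In LT-HSC, Ahr-KO against WT, DESeq2 called 7 (0.915% of all genes) and voom 19 (1.64%). The length covariate gave 43 (8.5%) and both covariates 17 (3.14%), and with offsets the median was 0.13. For MPP against LT-HSC, brackets hold the number of all genes called, out of 17416 unless another total is given. In Ahr-KO, 2 of the family were called with DESeq2 size factors (4014), library totals (4067) or TMM without the family (3983). DESeq2 called 3 (4557), voom 7 (5701) and offsets 9 (4323, family median -0.16). Only the 10 libraries gave 3 (4903 of 16206), and leaving out WT MPP 1 and Ahr-KO MPP 5 gave 13 (4245 of 17694). The count was 0 with no filter (3223 of 39094), a fold of 1.2 (2647) or both covariates (3979). It was also 0 without Ahr-KO LT-HSC 2 and 3 (3441 of 18200) and relative to the geometric mean (2190). In WT, library totals gave 1 (3931), voom 6 (6505), the length covariate 9 (5549), both covariates 7 (4892) and offsets 13 (4304). Leaving out WT MPP 1 and Ahr-KO MPP 5 gave 9 (3686 of 17694). A fold of 1.2 (2459) or only the 10 libraries (2711 of 16067) gave 0. Signs turned for genes near 0 that were not called. In LT-HSC these were Rpl35 (offsets -0.012, block -0.096, and -0.023 to 0.174 with 1 library left out), Rps14 (offsets -0.022, block -0.017) and Rpl38 (offsets -0.023). In MPP they were Rpl4 (upper quartile 0.0085, totals 0.020, offsets 0.0081, and -0.058 to 0.027 with 1 library left out), Rpl10 (both covariates -0.0082), Rplp0 (both covariates -0.018), Rpl22 (length -0.021) and Rpsa (length -0.031, both covariates -0.389, and -0.042 to 0.130 with 1 library left out). The causes were not tested.

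Same-numbered libraries were compared by the deviation of each gene's log2 CPM from the mean of its group. Between Ahr-KO and WT these deviations correlated at -0.04 to 0.06 over 2 pairs in LT-HSC and -0.18 to 0.01 over 5 in MPP. Between the populations they correlated at 0.01 to 0.18 over 4 pairs in Ahr-KO and -0.06 to 0.03 over 3 in WT. In Ahr-KO the own number was best in 3, and differently numbered libraries had -0.17 to 0.12. Whether a number names an animal shared between the populations is not stated, and the main fits did not pair the libraries. The block fits kept 4 libraries in LT-HSC, too few to say anything about stability, 10 in MPP and 14 between populations. With the replicate block, 0 genes were called for Ahr-KO against WT in LT-HSC (median 0.30) and in MPP (0.23), 0 for MPP against LT-HSC in Ahr-KO (0.09), 1 in WT (0.08) and 0 for the difference of effects (0.01).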

Other observations

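The proteins of the mitochondrial ribosome are encoded by other nuclear genes, and their direction in LT-HSC rested on WT LT-HSC 1. Of 74 tested mitochondrial ribosomal protein genes 35 were positive in Ahr-KO against WT LT-HSC, with a median log2 fold change of -0.01, and of 71 nuclear genes of oxidative phosphorylation 36 were positive with 0.00. Without WT LT-HSC 1, chosen after seeing the data, 65 of 74 and 69 of 71 were positive, with medians of 0.15 and 0.17 and none called. In MPP 56 of 74 and 57 of 72 were positive, with medians of 0.09 and 0.08. edgeR called 0 in each of these lists. WT LT-HSC 1 stood apart here too, with the highest sum of mitochondrial ribosomal protein genes of the LT-HSC libraries (5857 CPM, others 3429 to 3941) and the lowest of the 13 mitochondrially encoded genes (3750 CPM), beside its low sum of cytosolic ribosomal protein genes. Between MPP and LT-HSC 10 of 74 mitochondrial ribosomal protein genes rose in Ahr-KO and 4 in WT, and none fell, where 12.5% and 11.0% of all genes were called higher.

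Of 8 listed genes around MYC and p53, 2 were called higher and 1 lower in MPP against LT-HSC in each genotype. Of 14 listed genes of mTOR signalling, 2 were called higher and 1 lower in Ahr-KO and 1 each way in WT. Mycn, a MYC family factor, fell by 2.01 on the log2 scale in MPP against LT-HSC in Ahr-KO and in WT (edgeR, adjusted p = 1.41e-09 and 1.27e-09). Cdkn1a, a cell cycle inhibitor and p53 target, rose by 2.17 and 1.90 (edgeR, adjusted p = 4.86e-07 and 2.66e-06), and Rps6kb2, a kinase of Rps6, rose by 0.92 and 0.60 (edgeR, adjusted p = 2.02e-06 and 1.87e-04). Deptor, an mTOR inhibitor, fell by 0.77 and 0.67 (edgeR, adjusted p = 0.00759 and 0.0187).

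Pseudogenes named after the 77 genes had the same direction: of 176 tested in LT-HSC 175 were positive in Ahr-KO against WT, with a median of 0.27, and of 174 in MPP 159 with 0.20.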
